A study of Apis mellifera with 4 samples.

Results

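A set of 49 odorant receptors of the honey bee, Apis mellifera, is described here, namely the AmOr genes of the array with a number of 116 or more, apart from AmOr149, AmOr150, AmOr151 and AmOr170. They are 49 of 168 odorant receptors and of 313 genes on the array, and their numbers run to 169, with AmOr139 and AmOr153 absent from the array. The array carries a synthetic oligonucleotide per gene, printed as 2 spots. The study compared antennal RNA of drones, the males, with that of workers, the non-reproductive females, on 4 two-colour arrays. On every array 1 drone pool met 1 worker pool. A pool was made from 50 sets of antennae, whole, of bees caught at the hive entrance, and no collection was used for more than 1 pool. Drones were described as mature, while their age, strain and colony are not stated in the labels used here. By the label fields drone cDNA was in Cy3, the green dye, on arrays 1 and 3 and in Cy5, the red dye, on arrays 2 and 4, so the dyes were evenly swapped. The labelling protocol texts give other dyes for arrays 2, 3 and 4. The antennal genes AmOr002, AmSNMP, AmOBP01 and AmOBP02 were above the negative controls on 4 of 4 arrays in both sexes. Of 5 opsins, genes of light detection, 0 were above them on 3 or more arrays in either sex. On at least 1 array, 3 of the 5 opsins were so in worker and 1 in drone, against 230 and 152 of all 313 genes. Fewer cells that carry a receptor and less of its RNA per cell cannot be told apart in whole antennae.

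Insect odorant receptors are membrane proteins of olfactory neurons. A neuron usually makes 1 tuning receptor, which sets the odours it answers to, together with the co-receptor that all such neurons share, and the pair forms an ion channel that odours open. In the honey bee the co-receptor is AmOr002. The receptor family of this species is large and many of its genes lie in tandem runs of close relatives. Workers use smell for flowers, brood and nest mates, and drones for finding queens in flight. The ligands of most of the 49 receptors are not given in the sources used here, and AmOr152, like AmOr151, has been studied as a receptor for floral odorants. By the number in the name, 2 of the 49 had an entry in the RefSeq gene table of assembly Amel_HAv3.1, AmOr130 as gene 727063 and AmOr131 as gene 100577921.

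Most of the 49 receptors were dim. Each channel of each array was given a line, 2 SD over the mean signal of its negative control spots, with the bright control oligonucleotide number 4 left out. A gene counted as above the controls in a sex where its signal, local background removed, cleared that line on 3 arrays or more. By this measure 3 of the 49 receptors were above the controls in drone antennae, against 28.8% of all genes, and 4 were so in worker antennae, against 31.0% of all genes. These 4 were AmOr140, AmOr146 and AmOr161 in both sexes and AmOr167 in worker. A further 28 receptors were above on 1 or 2 arrays of a sex, and 17 were on none in either sex, against 24.6% of all genes. A receptor below this line was not detectable at this signal, and may still be made at a lower level. Precision is limited throughout by having 4 arrays. With oligonucleotide 4 kept among the controls, 0 receptors were above them in either sex, and the worker count was 1 without array 1 and 0 without array 2 or array 4.

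**Figure D1:**
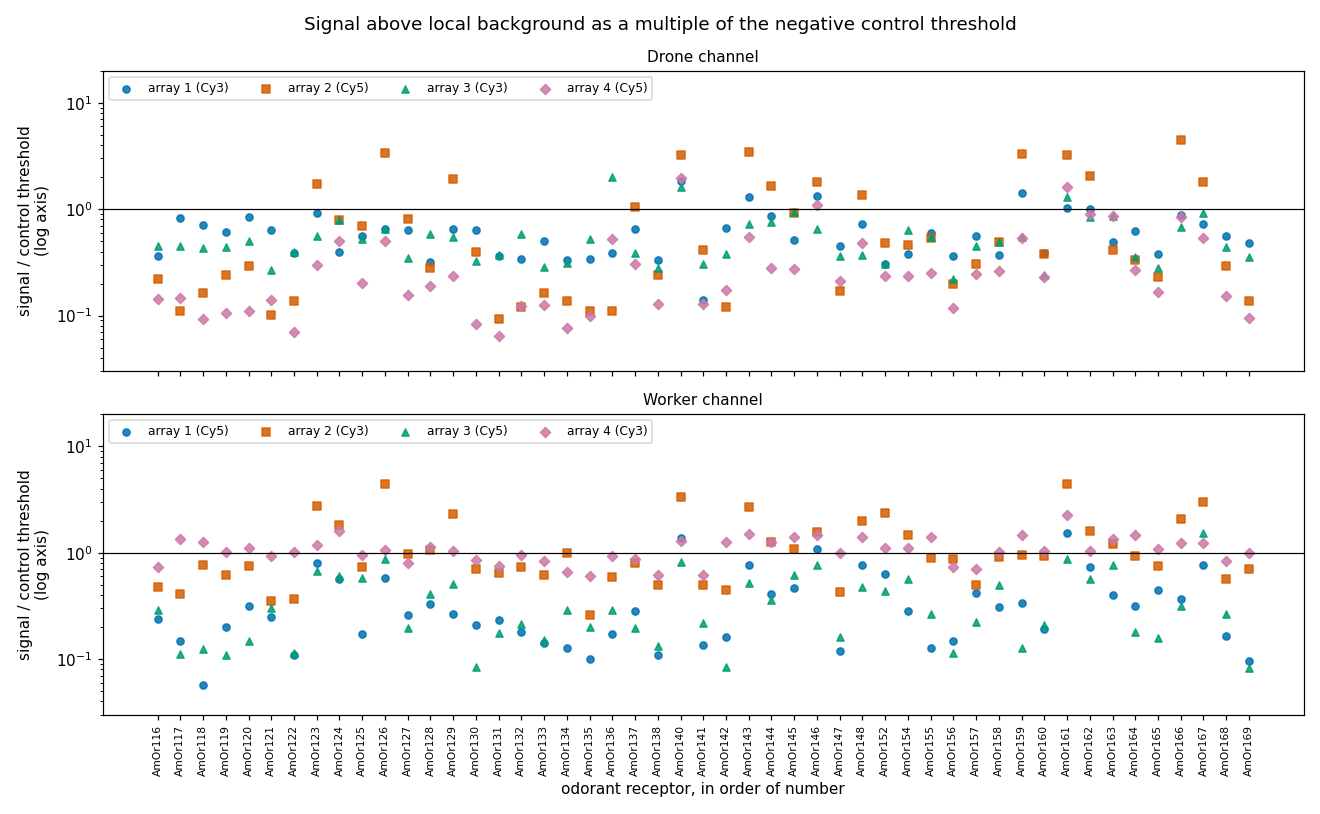
Signal above local background divided by the negative control threshold of the same array and channel (log axis) for each of the 49 receptors, in drone (top) and worker (bottom) channels. Each marker is 1 array with the dye of that channel, the line at 1 is the threshold, and the worker channel of array 4 has the most markers above it, 30 of 49.

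How many receptors cleared the line moved with the dye. In drone the number was 5 on array 1, 14 on array 2, 3 on array 3 and 3 on array 4. Of all genes 35.1%, 44.7%, 31.0% and 27.5% were above in drone on these arrays. In worker the number of receptors was 3, 18, 1 and 30 on the same arrays, against 29.1%, 59.4%, 28.8% and 62.3% of all genes. On each array the Cy3 channel held more receptors above the controls than the Cy5 channel, whichever sex it carried. The same was so over all genes. In the worker channel of array 4 the lowest of the 49 signals was 343.5, whereas in the drone channel of that array it was 39. Over all genes 195 were above the controls in the worker channel of array 4 and 86 in its drone channel. Above the controls in worker on at least 1 array, and in drone on none, were 17 of the 49 receptors, against 84 of all 313 genes. In drone on at least 1 array, and in worker on none, were 2 of the 49, against 6 of all genes. These counts are therefore given without a sex difference in detection, since the part of the dye in them was not tested.

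**Figure D2:**
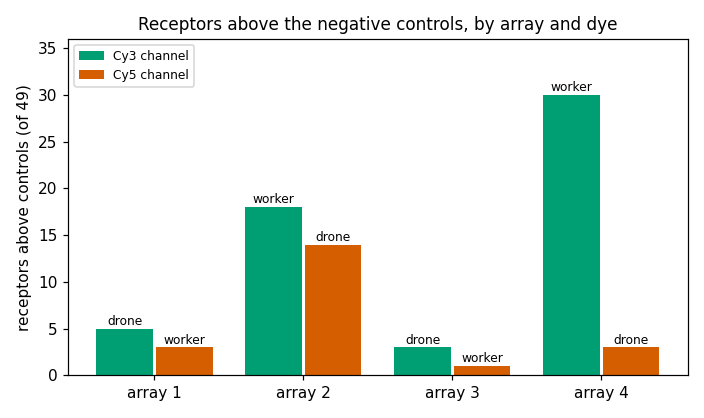
Number of the 49 receptors above the negative controls in each channel of each array, with bars by dye and the sex of the channel written on each bar. The Cy3 bar is the higher 1 on every array, with 5, 18, 3 and 30 receptors against 3, 14, 1 and 3 in Cy5.

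Of the 4 receptors with the clearest signal, AmOr140 had drone signals of 1251.5, 191, 1591 and 1190 on arrays 1 to 4, in scanner units above local background. Its worker signals on the same arrays were 837, 268, 1135.5 and 732. Drone was brighter on 3 arrays before normalization, and after it the log2 ratio of drone over worker was on the drone side on 4 of 4, at 0.19, 0.02, 0.85 and 0.87. The mean log2 ratio was 0.48 ± 0.21 (limma standard error, n = 4), a ratio of 1.40 that did not pass limma's test (adjusted p = 0.246). Its 95% interval ran from 0.984-fold to 1.98-fold. With the dyes of the protocol texts its mean was -0.39.

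AmOr161 had drone signals of 694, 189, 1273.5 and 966 and worker signals of 939.5, 355, 1188.5 and 1283. Its log2 ratios were -0.82, -0.35, 0.47 and -0.49, so 3 arrays leaned to worker and array 3 to drone. The mean of -0.30 ± 0.24 was not past the test (adjusted p = 0.572), with an interval from 0.548-fold to 1.21-fold of drone over worker. Single arrays moved it, to -0.12 without array 1 and to -0.55 without array 3.

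AmOr146 gave drone signals of 908, 106, 639.5 and 659 and worker signals of 653, 125, 1058 and 832.5. Its ratios of -0.00, 0.38, -0.40 and 0.15 lay on both sides of 0, with a mean of 0.03 ± 0.19 (adjusted p = 0.961). The interval, 0.751-fold to 1.39-fold, was the narrowest of these 4, and the sign of the mean turned under 8 of 21 other settings. AmOr167 had drone signals of 493.5, 106, 895.5 and 323.5 and worker signals of 468, 242, 2093.5 and 689. It leaned to worker on arrays 1 to 3, at -0.60, -0.40 and -0.74, and to drone on array 4, at 0.21. Its mean was -0.38 ± 0.21 (adjusted p = 0.359), with an interval from 0.546-fold to 1.08-fold. Without array 4 its mean was -0.58.

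By limma over all 313 genes, at an adjusted p under 0.05, 0 of the 49 were called on the drone side and 0 on the worker side. Of all genes 4.47% were called on the drone side and 7.35% on the worker side. The 4 names left out are the receptors of this number range that were called, so these counts of 0 follow from how the 49 were chosen. At an unadjusted p under 0.05, AmOr159 and AmOr166 were on the drone side, 2 of 49 against 9.90% of all genes, and AmOr152 was on the worker side, 1 of 49 against 11.8%. These shares too lack the receptors left out. The mean log2 ratios of the 49 ran from -0.90 to 0.77 with a median of 0.002, and over all genes from -4.45 to 4.77 with a median of 0.015. By the sign of the mean, 25 receptors lay on the drone side and 24 on the worker side. Loess fits the ratios along brightness and removes the trend, which would take with it any shift common to dim genes. Centred on the housekeeping genes instead, the median of the 49 was -0.26 and that of all genes -0.25.

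**Figure D3:**
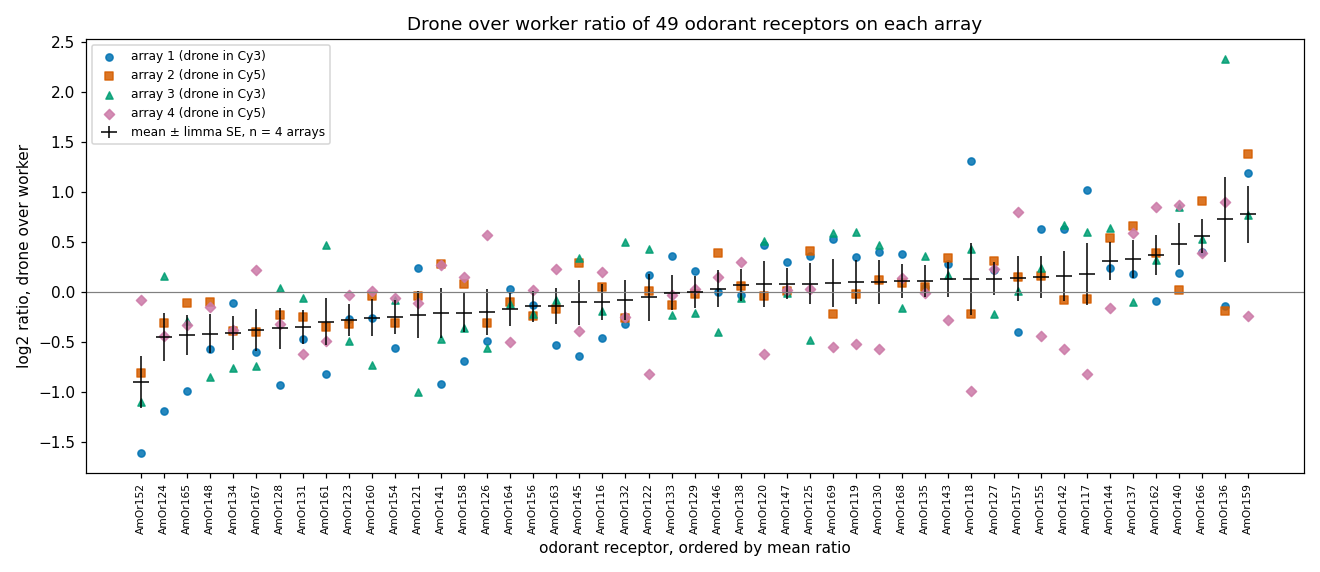
Log2 ratio of drone over worker (vertical axis) for each of the 49 receptors, ordered by mean ratio, with 1 marker per array and the mean with limma's standard error in black. AmOr152, at the left end, and AmOr159, at the right end, have 3 arrays far from 0 and array 4 at -0.08 and -0.24.

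AmOr152 had the lowest ratio of the 49 receptors. Its drone signals were 205, 28.5, 296 and 143 on arrays 1 to 4, and its worker signals 382.5, 189, 597.5 and 627. Worker was the brighter channel on 4 of 4 arrays, while the ranges of the 2 sexes over the arrays overlapped. Its normalized log2 ratios were -1.61, -0.81, -1.10 and -0.08, all on the worker side, with array 4 close to 0. The mean was -0.90 ± 0.26 with an adjusted p of 0.0885 by limma. Its drone signal was not well above background on any array, and its worker signal was so on arrays 2 and 4. The lower bound on its fold came out under 1, so no fold is given.

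Whether AmOr152 passed moved with array 4 and with the dye term. Without array 4 its log2 ratio was -1.17 ± 0.22 and it passed the test (adjusted p = 0.00333). That fit called 9.27% of all genes higher in worker. Its dye swap was uneven, so a dye effect does not cancel in the mean of -1.17. With a dye term for each gene the ratio stayed at -0.90, the standard error was 0.20 and it passed as well (adjusted p = 0.00534), in a fit that called 9.58% of all genes higher in worker. Its dye coefficient, Cy5 over Cy3, was 0.45 ± 0.20 (adjusted p = 0.244). Without array 1, 2 or 3 its adjusted p was 0.297, 0.297 and 0.244, and over 20 other settings in all it ran from 5.51e-04 to 0.983. The lowest came from arrays 1 and 2 alone, where limma gave AmOr140, AmOr152, AmOr159 and AmOr166 the same standard error, 0.29. That p therefore does not measure the spread of AmOr152 itself. On arrays 3 and 4, which share array number 7 in the labels, its ratio was -0.59, and on arrays 1 and 2 it was -1.21. The receptors just before it by number, AmOr149, AmOr150 and AmOr151, had log2 ratios of -0.87 ± 0.16, -1.04 ± 0.22 and -1.83 ± 0.30 and are among the 4 that passed and are not part of the 49. With the dyes of the protocol texts the mean of AmOr152 was 0.095, and 0 of all genes were called. AmOr152 sat in print block 8 and those 3 in print blocks 4, 16 and 12. Whether position on the array bears on their ratios was not tested.

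AmOr159 had the highest ratio of the 49. Its drone signals were 953.5, 192, 533.5 and 322.5, and its worker signals 206, 77, 174 and 820.5. Drone was brighter on arrays 1 to 3 and worker on array 4, where worker was in Cy3. The log2 ratios were 1.19, 1.37, 0.77 and -0.24, and the mean of 0.77 ± 0.29 did not pass (adjusted p = 0.170). Drone signal was above the controls on arrays 1 and 2, and worker signal on array 4 alone, so no fold is given. Without array 4 the ratio was 1.11 ± 0.20 and passed (adjusted p = 0.00333), in a fit that called 4.47% of all genes higher in drone. That fit has the uneven dye swap described for AmOr152. With a dye term AmOr159 also passed (0.77 ± 0.24, adjusted p = 0.0440), in a fit that called 6.39% of all genes higher in drone. Without array 1, 2 or 3 the adjusted p was 0.442, 0.566 and 0.354. Over 20 other settings in all it ran from 2.10e-04, on arrays 1 and 2 alone with that shared standard error of 0.29, to 0.998. With the dyes of the protocol texts the mean was -0.18.

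AmOr166 varied less between arrays than AmOr159. Its drone signals were 600, 261, 669 and 504 and its worker signals 222.5, 166, 433 and 698. The ratios of 0.40, 0.91, 0.53 and 0.38 lay on the drone side on 4 of 4 arrays, although on array 4 the raw signal was higher in worker. The mean was 0.56 ± 0.17 and was not called (adjusted p = 0.103). Signal was above the controls on array 2 in drone and on arrays 2 and 4 in worker, so no fold is given. It passed under 0 of 20 other settings, with a lowest adjusted p of 0.0678, with a dye term, and with the dyes of the protocol texts its mean was -0.36. AmOr166 and AmOr140 were the 2 of the 49 on the drone side on every array, against 15.0% of all genes.

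On the worker side of every array were 7 of the 49 receptors, against 17.6% of all genes. In order of mean ratio these were AmOr152, AmOr165, AmOr148, AmOr134, AmOr131, AmOr123 and AmOr154, of which the last 3 had means of -0.35, -0.28 and -0.25. AmOr165 had ratios of -0.99, -0.11, -0.29 and -0.33 and a mean of -0.43 ± 0.20 (adjusted p = 0.268), which was -0.24 without array 1. On array 4 alone did worker signal clear the controls, at 612 against 100 in drone, and on the other arrays the worker signals were 270, 60 and 215 against drone signals of 255.5, 13.5 and 271. These levels lay close together on arrays 1 and 3, and no fold is given because drone was below the line on 4 of 4 arrays.

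AmOr148 gave ratios of -0.57, -0.10, -0.85 and -0.15. Its drone signals of 494, 79.5, 359.5 and 291.5 stood against worker signals of 466.5, 161.5, 649 and 790.5, so worker was brighter on arrays 2, 3 and 4. The mean was -0.42 ± 0.19 and was not called (adjusted p = 0.268), and it was -0.27 without array 3. Signal was above the controls on array 2 in drone and on arrays 2 and 4 in worker, so no fold is given. AmOr134 had ratios of -0.12, -0.39, -0.76 and -0.38 and a mean of -0.41 ± 0.17 (adjusted p = 0.234). Its drone signals were 224.5, 8, 302 and 45.5 and its worker signals 76.5, 79.5, 397 and 368. In raw signal drone was thus the brighter on array 1 and worker on arrays 2, 3 and 4. AmOr134 was above the controls on no array in either sex, so no fold is given.

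The receptors next in number to those left out did not share 1 direction. AmOr148 and AmOr152 flank the run of AmOr149 to AmOr151, and their values are given above. AmOr147, before AmOr148, had ratios of 0.30, 0.01, -0.01 and 0.02, with a mean of 0.08 ± 0.16 (adjusted p = 0.856) that was 0.0083 without array 1. AmOr168 and AmOr169 precede AmOr170, which had 1.67 ± 0.36. AmOr168 had 0.38, 0.08, -0.17 and 0.14, with a mean of 0.11 ± 0.17 (adjusted p = 0.807) that was 0.018 without array 1 and 0.20 without array 3. AmOr169 had 0.53, -0.22, 0.59 and -0.55, with a mean of 0.09 ± 0.24 (adjusted p = 0.909) that ran from -0.080 to 0.30 with 1 array left out. All 3 were above the controls on no array in either sex, and the means of AmOr147, AmOr168 and AmOr169 turned to the worker side under housekeeping centring.

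Between arrays, Pearson's r of the log2 ratios over the 49 was 0.48 for arrays 1 and 2, 0.41 for 1 and 3, 0.25 for 2 and 3 and 0.22 for 2 and 4. It was -0.23 for arrays 1 and 4 and -0.04 for arrays 3 and 4. Over all 313 genes, those called included, r ran from 0.39 to 0.78. These are descriptions across genes that share arrays and print runs, and the genes are not replicates. Of the 49 receptors, 21 had 1 direction on arrays 1 to 3, and 9 kept it on array 4, which is 18.4% of them against 32.6% of all genes. The 4 receptors left out had 1 direction on 4 of 4 arrays, so the lower r and the lower shares of 1 direction among the 49 follow in part from how they were chosen, and nothing is read from them. The duplicate spots of a receptor differed by a median of 0.13, 0.11, 0.16 and 0.20 log2 units on arrays 1 to 4, while the SD of a receptor over the 4 arrays had a median of 0.39.

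In some receptors, about as often as among all genes of the array, the sign of the ratio went with the dye on every array. AmOr117 had log2 ratios of drone over worker of 1.02, -0.07, 0.60 and -0.82, and AmOr118 had 1.30, -0.22, 0.43 and -0.99. AmOr119 had 0.35, -0.02, 0.60 and -0.52, and AmOr120 had 0.47, -0.04, 0.51 and -0.62. After normalization the Cy3 channel was thus the brighter on every array, drone on arrays 1 and 3 and worker on arrays 2 and 4. Their means over the swap ran from 0.08 to 0.18. These 4 follow each other by number, sat in print blocks 14, 10, 6 and 2, and were chosen after their values were seen. With AmOr142 and AmOr169, 6 of the 49 were brighter in Cy3 on 4 of 4 arrays, against 11.8% of all genes. Brighter in Cy5 on 4 of 4 arrays were 5 of the 49, AmOr116, AmOr138, AmOr141, AmOr146 and AmOr158, against 11.5% of all genes.

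**Figure D4:**
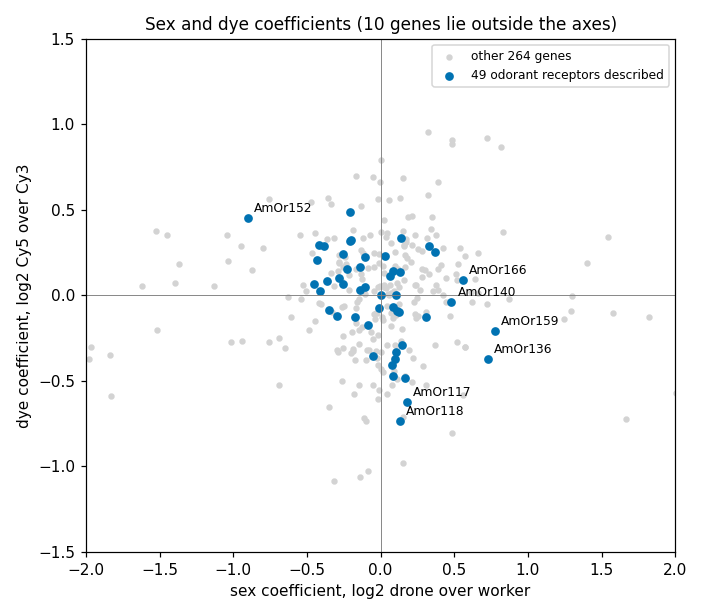
Coefficients of a fit with a sex term (horizontal axis, log2 drone over worker) and a dye term (vertical axis, log2 Cy5 over Cy3), with the 49 receptors in blue and the other 264 genes in grey, of which 10 lie outside the axes. AmOr117 and AmOr118 lie low on the dye axis and near 0 on the sex axis, and AmOr152 and AmOr159 lie at the ends of the sex axis among the 49.

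In the fit with a dye term, the dye coefficient of AmOr118 was -0.73 ± 0.22 (adjusted p = 0.107) and that of AmOr117 was -0.63 ± 0.20 (adjusted p = 0.133). Negative values mean brighter in Cy3. No dye coefficient of the 49 was called by limma, against 0.319% of all genes. At an unadjusted p under 0.05, 4 of the 49 were brighter in Cy3, AmOr117, AmOr118, AmOr142 and AmOr169, against 10.2% of all genes. AmOr141 and AmOr152 were brighter in Cy5, 2 of 49 against 7.67% of all genes. The dye coefficient was larger in size than the sex coefficient in 22 of the 49 receptors, against 48.2% of all genes.

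The other 36 receptors, those not yet named under the rule for naming, spread from -0.45 to 0.73 in mean log2 ratio, 18 on each side of 0, with a lowest adjusted p of 0.306, that of AmOr131. Its ratios were -0.47, -0.25, -0.06 and -0.62, with drone signals of 244, 5.5, 360 and 39 and worker signals of 142, 51.5, 244.5 and 425. Drone was thus the brighter in raw signal on arrays 1 and 3 and worker on arrays 2 and 4, and AmOr131 was above the controls on no array. AmOr130, the other receptor with a RefSeq entry, had ratios of 0.40, 0.12, 0.47 and -0.57 and a mean of 0.10 ± 0.22 (adjusted p = 0.881), also above the controls on no array. The standard errors of the 49 ran from 0.15 to 0.43, and in 45 of them the 95% interval of this fit lay within 1 log2 unit of 0. For the dim receptors that says little, because the offset of 50 added to each signal pulls their ratios towards 0. The 4 whose interval reached past 1 were AmOr124, AmOr136, AmOr152 and AmOr159.

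Some of the 36 were brighter. AmOr143, with 4 channels above the controls, had drone signals of 886.5, 204, 706 and 327.5 and worker signals of 465, 215.5, 718.5 and 837.5. Its ratios of 0.27, 0.34, 0.17 and -0.28 gave a mean of 0.13 ± 0.18 (adjusted p = 0.797). AmOr126 had drone signals of 443, 200, 641 and 303 and worker signals of 352, 358.5, 1189.5 and 600.5. It leaned to worker on arrays 1 to 3, at -0.49, -0.31 and -0.56, and to drone on array 4, at 0.57, with a mean of -0.20 ± 0.23 (adjusted p = 0.753). AmOr162 leaned to drone on arrays 2 to 4, with ratios of -0.09, 0.39, 0.32 and 0.85 and a mean of 0.37 ± 0.20 (adjusted p = 0.359). Its drone signals were 677, 121, 828 and 543 and its worker signals 443.5, 128, 776.5 and 584.5. AmOr124 had the mean nearest to that of AmOr152 on the worker side, -0.45 ± 0.24 (adjusted p = 0.357), from ratios of -1.19, -0.32, 0.15 and -0.44. Its drone signals were 265.5, 46.5, 778 and 299.5 and its worker signals 342.5, 145, 829 and 910.5, so worker was brighter in raw signal on 4 of 4 arrays. These 4 were chosen after their values were seen.

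AmOr136, picked after its values were seen, had the widest spread of the 49. Its drone signals were 262, 6.5, 1974.5 and 314.5 and its worker signals 105, 47.5, 397 and 519.5. Of these 8 signals only the drone signal of array 3 was above the controls. Its log2 ratios were -0.14, -0.19, 2.33 and 0.90, with a mean of 0.73 ± 0.43 (adjusted p = 0.410). Its duplicate spots on array 3 differed by 0.42 log2 units, and on array 4 by 0.84.

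Set beside the rest of the family, fewer of the 49 receptors were above the controls, with 4 of 49 in either sex, against 105 of all 313 genes. Of the 61 receptors numbered up to 61, 17 were so in either sex, 11 in drone and 13 in worker. Of the 54 numbered from 62 up to those described here, 8 were so in either sex, 6 in drone and 7 in worker. The median log2 ratio was 0.06 for the first group and -0.17 for the second, beside 0.002 for the 49, and 31.1% and 31.5% of those groups kept 1 direction on 4 of 4 arrays. These differences between groups of genes were not tested, and the groups are not alike. The 49 lack the receptors that were left out, of which AmOr151 was above the controls in worker on 4 arrays and AmOr170 in drone on 3. The other groups keep their called receptors, and the first also holds the co-receptor AmOr002.

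Of the other genes of the olfactory pathway on the array, 29 in all, 0 were called on the drone side and 7 on the worker side. Of all genes 4.47% and 7.35% were called on these sides. All 7 were odorant binding proteins, soluble carriers of odours around the neurons. The co-receptor AmOr002 was far above the controls, with drone signals of 10010, 3946.5, 27330.5 and 11355 and worker signals of 5250.5, 2892, 26052 and 3905. Its log2 ratio was 0.42 ± 0.16, on the drone side on 4 of 4 arrays and not called (adjusted p = 0.174). AmSNMP, a membrane protein of pheromone-sensing neurons in flies, had -0.49 ± 0.18 (adjusted p = 0.173). AmGpAsOlf, a G-protein alpha subunit, had 0.51 ± 0.16 (adjusted p = 0.111), and AmPin, named for the fly gene Pinocchio, had -0.02 ± 0.19 (adjusted p = 0.978). AmARR3, an arrestin, a class of proteins that shut down receptor signalling, had 0.03 ± 0.32 (adjusted p = 0.992). Among the 19 odorant binding proteins 14 were above the controls in worker and 13 in drone. Of these 19, 10 had a spot with pixels at the top of the scanner scale, against 27 of all 313 genes, which limits their ratios.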

How the data were processed

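The authors deposited 1 scanner file per array. Per the file headers it lists, for every spot and both dyes, the intensity of the spot (median and mean of its pixels) and of the surface around it, unsubtracted and reaching 65535 at most. Per the file headers there is also the percent of pixels at the top of the scale and a quality score, which was -75 on the empty spots that were dropped. A table of log2 ratios that the authors deposited states neither centring nor direction. It ran as worker over drone (r with drone over worker of -0.98, -0.91, -0.94 and -0.98 on arrays 1 to 4), its column medians were -0.02, -0.09, -0.06 and 0.08, its normalization stays unknown, and it served as an alternative. The scanner and its software are not given in the sources used here.

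Ratios came from limma 3.58.1 run under R 4.3.3, with median foreground, normexp background correction with offset 50, loess within arrays with control spots at weight 0, the 2 spots of a gene averaged, ratios turned to drone over worker by the dyes of the label fields, lmFit and eBayes over 4 arrays, two-sided p-values adjusted after Benjamini-Hochberg across the 313 genes, and a threshold of 0.05. Folds, given only for receptors above the controls on 3 arrays, are 2 to the power of the mean log2 ratio. A gene not above the controls on any array of 1 sex would get a lower bound, from levels after loess and Aquantile normalization, and no bound reached 1. With the dyes of the label fields the arrays correlated at 0.39 to 0.78 over all genes. Members and lists were chosen with earlier results of these data known. Named receptors were those above the controls on 3 arrays, past an unadjusted p of 0.05, among the 4 largest ratios per direction with 1 sign on all arrays, or within 2 of a number left out. Of the pathway genes above the controls, odorant binding proteins are given as counts. The fit was tested on simulated data. Each pool is a separate collection per the design text, and the array was the replicate. The p-values rest on the spread among these 4 arrays, with each gene's variance drawn by eBayes towards a value shared over all 313 genes.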

Additional observations from a re-analysis of the deposited data

Results flagged for a closer look

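In 50 sets of 4 array values, 49 receptors and the median over them, 3 sets held 1 array far from the other 3, where chance marks about 1 set in 20. AmOr132 had 0.50 on array 3 and -0.32, -0.26 and -0.25 on arrays 1, 2 and 4. AmOr135 had 0.35 on array 3 and 0.05, 0.05 and -0.01 on the others. AmOr147 had 0.30 on array 1 and 0.01, -0.01 and 0.02 on arrays 2 to 4. AmOr132, AmOr135 and AmOr147 cleared the negative controls on none of the 4 arrays, in drone or in worker.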

How the results depend on the processing

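Median, housekeeping and non-receptor centring below replace loess. With 1 array left out the dyes were unevenly swapped, so a dye effect does not cancel in those means. The counts of called receptors, 0 in drone and 0 in worker, were the same under 17 of 21 other settings. These counts of 0 follow from how the 49 were chosen, so nothing is read from that. With the dyes of the protocol texts 0 of all genes were called, and among genes above the controls only 4 of the 49 were tested. The counts were 1 and 1 with a dye coefficient and on arrays 1 and 2 alone. Of all 313 genes, 20 and 30 were called with a dye coefficient, and 15 and 34 on arrays 1 and 2 alone. With arrays 3 and 4 averaged as 1 replicate the counts were 0 and 1, against 16 and 24 of all genes. With 1 array left out each count ranged from 0 to 1, with 1 and 1 without array 4, against 14 and 29 of all genes. The receptors called were AmOr159 in drone and AmOr152 in worker. On arrays 1 and 2 alone limma gave both the same standard error, 0.29, so passing there does not rest on the spread of either receptor. At an unadjusted p under 0.05 the drone count of 2 was 0 under housekeeping centring, non-receptor centring, no normalization and the dyes of the protocol texts, 1 among genes above the controls and on arrays 3 and 4 alone, 4 with a dye coefficient, and 0 to 3 with 1 array left out. The worker count of 1 was 0 under housekeeping centring, the dyes of the protocol texts, genes above the controls and arrays 3 and 4 alone. It was 2 without background subtraction, with offset 16, without saturated spots and with arrays 3 and 4 averaged, 3 with plain subtraction, a dye coefficient or the ratios of the authors' deposited table, 4 on arrays 1 and 2 alone, and 1 to 4 with 1 array left out. The median log2 ratio of 0.002 was 0.062 under median centring, -0.26 under housekeeping centring, -0.091 under non-receptor centring, -0.12 without normalization and -0.032 without background subtraction. It was 0.046 in the authors' deposited table, -0.13 over the 4 receptors above the controls, -0.053 on arrays 3 and 4, 0.034 with these averaged, 0.048 on arrays 1 and 2, and -0.063 to -0.0060 with 1 array left out.

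Receptors above the controls, 3 in drone and 4 in worker, were 0 and 0 with oligonucleotide 4 kept, 1 and 2 at 3 SD, 15 and 30 on at least 1 array, and 0 in worker on 4 of 4 arrays. With 1 array left out they were 2 to 3 in drone and 0 to 3 in worker, since all 3 arrays that remain must then clear the line. Called dye effects stayed at 0 under 4 of 4 other settings.

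Signs turned with the dyes of the protocol texts for AmOr134 (0.35), AmOr140 (-0.39), AmOr146 (-0.032), AmOr148 (0.13), AmOr152 (0.095), AmOr159 (-0.18), AmOr166 (-0.36) and AmOr167 (0.083). Under housekeeping centring they turned for AmOr146 (-0.24), AmOr147 (-0.11), AmOr168 (-0.21) and AmOr169 (-0.16), under non-receptor centring for AmOr146 (-0.072) and AmOr168 (-0.036), and without normalization for AmOr146 (-0.10), AmOr168 (-0.065) and AmOr169 (-0.014). AmOr146 also turned without background subtraction (-0.0055), without array 2 (-0.086) and without array 4 (-0.0060), in a range up to 0.18 without array 3. On arrays 3 and 4 alone AmOr146 was at -0.13 and AmOr168 at -0.015. AmOr169 was at -0.060 without array 1 and -0.080 without array 3, in a range up to 0.30 without array 4. Because the protocol texts give the other dye on arrays 2, 3 and 4, the ratios of those arrays change sign by construction under that setting. What lay behind the other changes was not tested. Spots coded as not found left out, arrays 3 and 4 alone, these averaged, and arrays 1 and 2 alone were chosen after seeing the data. The slide as a random block could not be fitted, since limma gave no estimate of its correlation. The main fit is itself paired, since each ratio sets a drone pool against the worker pool of its array. No paired analysis was possible beyond that because the 4 ratios form 1 group. Signal over background limits the dim receptors.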
